A study of Homo sapiens with 12 samples.

Results

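NEAT1, MALAT1, UCA1 and ESRG are long non-coding RNAs, transcripts that are not translated into protein, and their levels are described here in 2 human testicular germ cell tumour lines given an inhibitor of the chromatin reader BRD9. They were taken by gene name from a table of estimated counts, which holds 4 such rows of 63241, and all 4 passed the low-count filter that kept 15614 genes. The RNAs were chosen by their measured levels and their changes in these same libraries, so their values in every comparison are given as a description, without a test. TCam-2 is a seminoma line, grown in RPMI medium, and 2102 EP an embryonal carcinoma line, grown in DMEM. Both are labelled wild type. Treatment lasted 24 h, with 15 µM I-BRD9, a ligand of the BRD9 bromodomain, or with its solvent DMSO, and gives 4 groups: TCam-2 with I-BRD9, TCam-2 with DMSO, 2102 EP with I-BRD9 and 2102 EP with DMSO. Each group has 3 libraries that the labels call biological replicates. No source used here says whether they came from separate cultures, so the spread between them may in part be technical. Each line is a single tumour's cells, and a difference between the lines cannot be told apart from the difference in medium.

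RNA was extracted with an RNeasy kit and made into libraries with a Lexogen QuantSeq 3′ kit, which primes on runs of A and counts transcript ends. The 12 libraries held 7290335 to 10053366 estimated counts each, over 20858 to 22062 genes. Levels are given as CPM, counts scaled by library size and TMM, and because the counts are of transcript ends they do not grow with length in the way of whole-transcript counts. SOX17 and PRAME, markers of seminoma, had at most 3 counts over a group of 2102 EP libraries and more in both TCam-2 groups. NANOS3, another such marker, did not divide the lines in this way. It had at most 3 counts over the I-BRD9 group of each line and more over each DMSO group. The summed level of 8 seminoma markers was 1248 to 1413 CPM in TCam-2 with I-BRD9 and 1444 to 1913 CPM with DMSO, and 149.3 to 154.6 CPM and 180.1 to 255.7 CPM in 2102 EP. Of 6 blood and endothelial markers, CD3E, HBB and PTPRC had at most 3 counts in every group, as had DCN of 7 stromal markers. The stromal markers summed to 90.6 to 139.7 CPM in TCam-2 with I-BRD9 and 183.3 to 189.7 CPM with DMSO, and to 138.0 to 157.7 CPM and 228.5 to 253.5 CPM in 2102 EP, with 4 to 6 of the 7 over 3 counts in each group. THY1, 1 of these 7, had group means of 1.69 CPM in TCam-2 with I-BRD9 and 21.4 CPM with DMSO. In 2102 EP its means were 119.0 CPM and 220.1 CPM, so it made up most of the sums in that line. The part of the stromal markers in the results was not tested. In bulk RNA, fewer cells that express a transcript and less of it per cell cannot be told apart.

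NEAT1 is the scaffold of paraspeckles, nuclear bodies that hold RNA-binding proteins. Its gene makes a short polyadenylated RNA and a long one, and only the long one builds the body. MALAT1 is a very abundant nuclear RNA that gathers in speckles, where splicing factors are stored. UCA1 was found in bladder carcinoma and is made in early embryonic and tumour tissue. ESRG is a marker of human pluripotent stem cells. Transcripts of UCA1 and ESRG are both derived in part from HERV-H, an endogenous retrovirus family whose LTR7 repeats act as promoters in pluripotent cells. BRD9 is a subunit of the non-canonical BAF complex, which moves nucleosomes.

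The 3′ ends are shown because the libraries were primed there. By GENCODE release 29 on GRCh38, NEAT1 (ENSG00000245532) lies at chr11:65422774-65445540 on the plus strand with 8 transcripts, and MALAT1 (ENSG00000251562) at chr11:65497688-65506516 on the same strand with 17 transcripts, 52147 bases further on. The short NEAT1 transcript NEAT1-208 ends at chr11:65426474-65426513 with a polyadenylation signal, in capitals:
NEAT1-208: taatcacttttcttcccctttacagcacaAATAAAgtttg
The long RNA of each gene is known to end elsewhere, by a cut before a small tRNA-like RNA, and to keep an A-rich end that the genome encodes. The last 40 bases of NEAT1-202, the long transcript of 22743 bases (chr11:65445501-65445540), and the 40 bases before the small RNA annotated within MALAT1 (chr11:65506077-65506116) share their last 11 bases, in capitals:
NEAT1-202: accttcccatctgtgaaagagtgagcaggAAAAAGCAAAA
MALAT1-202: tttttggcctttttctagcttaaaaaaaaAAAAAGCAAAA
In MALAT1-202 (8708 bases) the run of 13 A that leads into this end was the only run of at least 10 A. NEAT1-202 holds 5 such runs, the longest of 22 A, at 4676 bases from its end. Of the 17 annotated MALAT1 transcripts 8, MALAT1-202 among them, also hold AATAAA or ATTAAA within their last 40 bases. A gene-level count sums all of these places, so the short and the long NEAT1 RNA cannot be told apart here.

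UCA1 (ENSG00000214049) lies at chr19:15828206-15836326 on the plus strand with 36 transcripts, and ESRG (ENSG00000265992) at chr3:54632122-54639857 on the minus strand with 1 transcript of 3140 bases. ESRG sits within CACNA2D3, a calcium channel subunit gene on the other strand, and overlaps none of its exons. Within their last 40 bases, 26 of the 36 UCA1 transcripts and the ESRG transcript hold AATAAA or ATTAAA, in capitals, shown for UCA1-223 (chr19:15835656-15835695) and ESRG-201 (chr3:54632122-54632161):
UCA1-223: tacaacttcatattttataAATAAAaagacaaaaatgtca
ESRG-201: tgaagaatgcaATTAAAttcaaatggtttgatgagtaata

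NEAT1 was higher with I-BRD9 in both lines. Its level was 235.4, 250.9 and 260.1 CPM in the TCam-2 libraries with I-BRD9 and 27.6, 41.4 and 45.4 CPM in those with DMSO. The 2102 EP libraries had 372.6, 291.5 and 192.8 CPM with I-BRD9 and 27.7, 22.5 and 36.3 CPM with DMSO. The groups did not overlap in either line, and the 2102 EP libraries with I-BRD9 were the most spread of the 4 groups. The means were 248.8 ± 12.5 against 38.1 ± 9.34 CPM in TCam-2 and 285.6 ± 90.1 against 28.8 ± 6.97 CPM in 2102 EP (SD, n = 3 each). The log2 fold change was 2.7 ± 0.29 (SE, edgeR) in TCam-2, a ratio of 6.52, and 3.31 ± 0.30 in 2102 EP, a ratio of 9.92. Among the 15614 genes tested, the mean of NEAT1 was the 621st highest in TCam-2 with I-BRD9 and the 4264th with DMSO, and the 537th and the 4994th in 2102 EP. Neither the I-BRD9 groups of both lines nor their DMSO groups were separate from each other. Between the lines with DMSO the log2 fold change was 0.41 ± 0.30 (TCam-2 over 2102 EP).

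MALAT1 was higher with I-BRD9 in both lines and higher in TCam-2 than in 2102 EP. It had 6866.7, 7161.8 and 8193.1 CPM in TCam-2 with I-BRD9 and 1772.0, 2037.6 and 2461.4 CPM with DMSO. The levels in 2102 EP were 2414.7, 2017.8 and 1681.5 CPM with I-BRD9 and 698.1, 592.6 and 762.7 CPM with DMSO. All I-BRD9 libraries were above all DMSO libraries within each line, and 2102 EP with I-BRD9 overlapped TCam-2 with DMSO. The means were 7407.2 ± 696.4 against 2090.4 ± 347.7 CPM in TCam-2 and 2038.0 ± 367.0 against 684.4 ± 85.9 CPM in 2102 EP. The log2 fold changes were 1.83 ± 0.15 in TCam-2 and 1.57 ± 0.15 in 2102 EP, ratios of 3.54 and 2.98. MALAT1 took 0.691% to 0.841% of all counts in TCam-2 with I-BRD9 and 0.172% to 0.236% with DMSO. Its share in 2102 EP was 0.176% to 0.243% with I-BRD9 and 0.0579% to 0.0753% with DMSO. It was the 3rd or 4th most counted gene in each TCam-2 library with I-BRD9.

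MALAT1 exceeded NEAT1 in every library, by a smaller ratio with I-BRD9 in both lines. The ratio of their CPM was 29.2, 28.5 and 31.5 in TCam-2 with I-BRD9 and 64.2, 49.2 and 54.2 with DMSO. For 2102 EP the ratio was 6.48, 6.92 and 8.72 with I-BRD9 and 25.2, 26.3 and 21.0 with DMSO. It is a ratio of counts, since the longest transcripts of NEAT1 and MALAT1 hold 5 and 1 runs of at least 10 A where priming could occur. The part of these runs in the ratio was not tested. The counts of both genes were not whole in all 12 libraries (tolerance 0.01), which marks reads that were shared with other genes. The small gene RF01871, nested in MALAT1 on its strand, also had such counts in 12 libraries, at 68.0 against 20.2 CPM in TCam-2 and 29.9 against 7.62 CPM in 2102 EP. The antisense genes AP000769.2 and TALAM1 had at most 3 counts in a library, and RF01684, the small tRNA-like RNA, had 0. Mitochondrially encoded RNA, a measure of RNA quality, made up 6.07% to 7.76% of TCam-2 libraries with I-BRD9 and 7.02% to 7.40% with DMSO. In 2102 EP its share was 10.8% to 11.4% with I-BRD9 and 8.21% to 10.1% with DMSO, and its part in the levels of NEAT1 and MALAT1 was not tested.

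**Figure D1:**
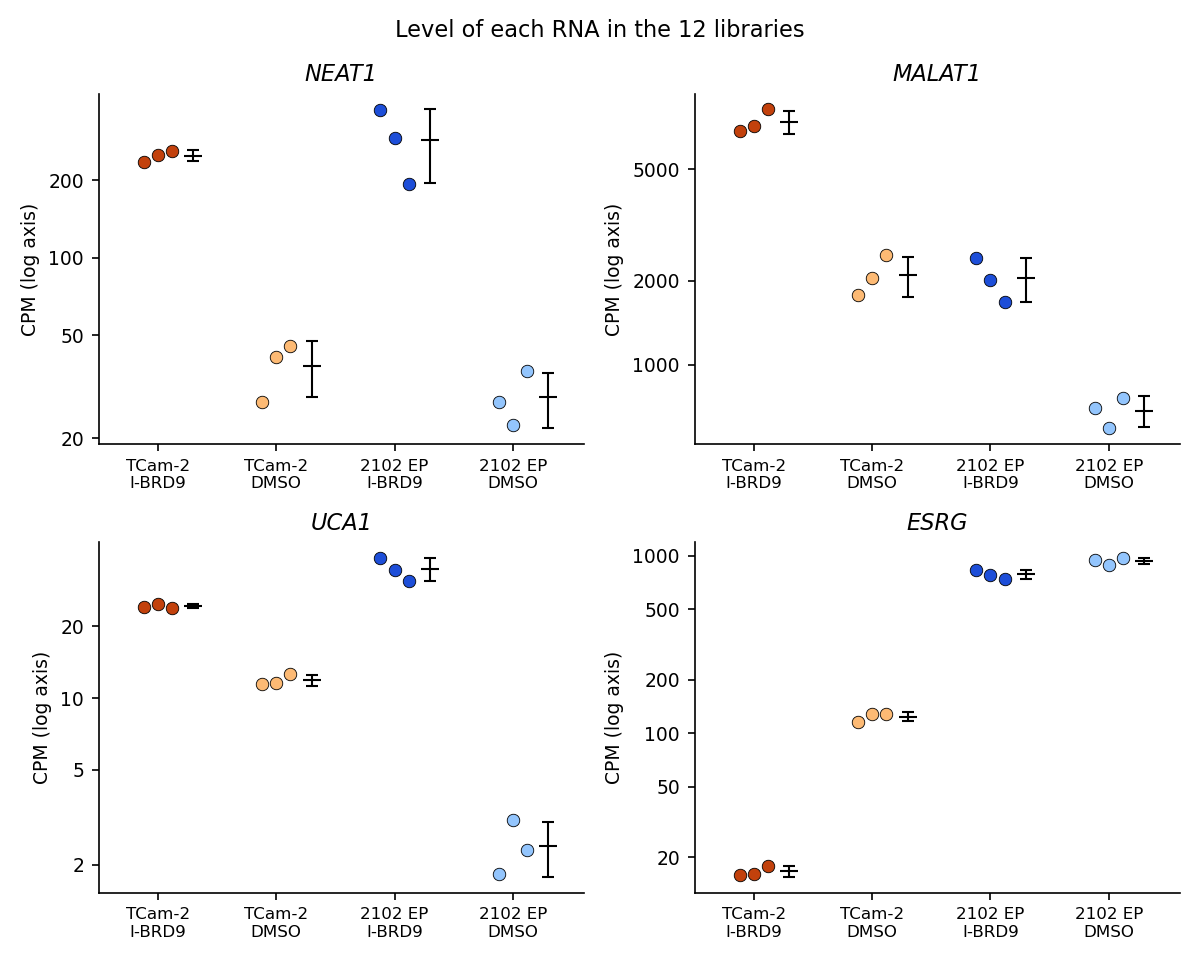
Level of NEAT1, MALAT1, UCA1 and ESRG in CPM on log axes for the 12 libraries. Coloured points are the 3 libraries of a group in replicate order, and the black marks are the mean ± SD. NEAT1 and MALAT1 are higher with I-BRD9 in both lines, UCA1 is lowest in 2102 EP with DMSO at 1.83 to 3.07 CPM, and ESRG is lowest in TCam-2 with I-BRD9 at 15.9 to 18.0 CPM.

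UCA1 was low in both lines with DMSO and higher with I-BRD9, by more in 2102 EP. It had 24.2, 24.9 and 23.8 CPM in TCam-2 with I-BRD9 and 11.4, 11.6 and 12.6 CPM with DMSO. The 2102 EP libraries had 38.7, 34.4 and 31.1 CPM with I-BRD9 and 1.83, 3.07 and 2.30 CPM with DMSO. No groups overlapped, so that the 4 groups ran from 2102 EP with I-BRD9 at the top, through TCam-2 with I-BRD9 and TCam-2 with DMSO, to 2102 EP with DMSO. The means were 24.3 ± 0.548 against 11.9 ± 0.639 CPM in TCam-2 and 34.7 ± 3.81 against 2.40 ± 0.623 CPM in 2102 EP. The log2 fold change was 1.03 ± 0.15 in TCam-2 and 3.85 ± 0.18 in 2102 EP, ratios of 2.04 and 14.4. Between the lines with DMSO it was 2.30 ± 0.19 (TCam-2 over 2102 EP). The name abundant lncRNA did not hold for UCA1, whose mean was at best the 4403rd highest of all genes tested, in 2102 EP with I-BRD9. All of its counts were whole, and LINC01764, which overlaps it on the other strand, had at most 1 count in a library.

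ESRG was lower with I-BRD9 in both lines, by the larger ratio in TCam-2, where its level was also lower with DMSO. It had 15.9, 16.1 and 18.0 CPM in TCam-2 with I-BRD9 and 115.8, 128.0 and 129.1 CPM with DMSO. Levels in 2102 EP were higher, at 833.8, 779.1 and 741.0 CPM with I-BRD9 and 943.6, 891.4 and 964.4 CPM with DMSO. The groups were separate in both lines, by a wide margin in TCam-2 and a narrow one in 2102 EP. The means were 16.7 ± 1.14 against 124.3 ± 7.37 CPM in TCam-2 and 784.6 ± 46.6 against 933.1 ± 37.6 CPM in 2102 EP. The log2 fold change was −2.90 ± 0.09 in TCam-2 and −0.25 ± 0.08 in 2102 EP, which are 7.46 and 1.19 times lower levels. With DMSO, TCam-2 stood at −2.91 ± 0.08 on the log2 scale against 2102 EP. The ratio of ESRG to UCA1 was 0.657, 0.647 and 0.756 in TCam-2 with I-BRD9 and 10.1, 11.1 and 10.2 with DMSO. For 2102 EP it was 21.5, 22.7 and 23.8 with I-BRD9 and 515.5, 290.8 and 419.1 with DMSO. The counts of ESRG were not whole in 9 of 12 libraries, all but those of TCam-2 with I-BRD9. CACNA2D3, the host gene, had group means of 0.537 to 1.88 CPM and was not called in either line (edgeR adjusted p under 0.05), though it was in 2102 EP when I-BRD9 replicate 1 was left out (adjusted p = 0.0345). The summed level of 8 embryonal carcinoma markers was also lower with I-BRD9 (GDF3 had at most 3 counts over that TCam-2 group), at 1759 to 1874 against 3654 to 3755 CPM in TCam-2 and 1879 to 1982 against 4701 to 4779 CPM in 2102 EP, and its part in the level of ESRG was not tested.

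**Figure D2:**
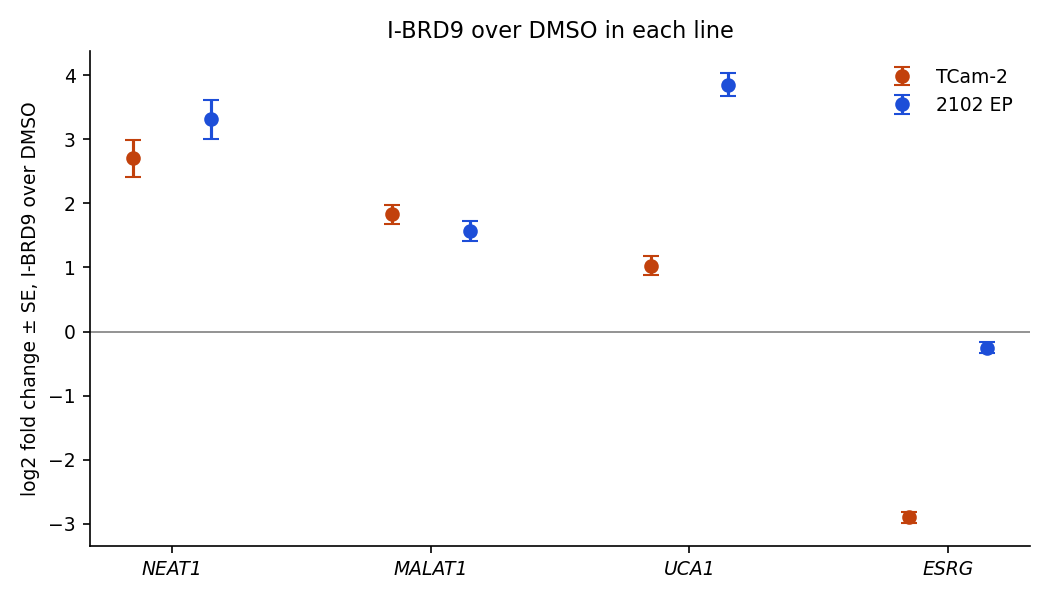
log2 fold change of I-BRD9 over DMSO (points, ± SE from edgeR) for NEAT1, MALAT1, UCA1 and ESRG in TCam-2 and 2102 EP. NEAT1 and MALAT1 lie at similar heights in both lines, UCA1 is at 1.03 in TCam-2 and 3.85 in 2102 EP, and ESRG at −2.90 and −0.25.

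The I-BRD9 effects were next set side by side as TCam-2 minus 2102 EP. The differences of the log2 fold changes were −0.61 ± 0.40 for NEAT1, 0.25 ± 0.21 for MALAT1, −2.82 ± 0.24 for UCA1 and −2.65 ± 0.12 for ESRG (SE). In the fit over all genes (edgeR), which is no test of RNAs chosen on these values, all 4 were under an adjusted p of 0.05 in both I-BRD9 comparisons, where 31.8% of the genes tested were called in TCam-2 and 36.8% in 2102 EP. Their groups were separate in both lines, as those of 45.7% of the genes tested were in TCam-2 and of 46.3% in 2102 EP. The difference between the lines' effects was under it for UCA1 and ESRG, and for 13.1% of the genes tested. In the comparison of the lines with DMSO, MALAT1, UCA1 and ESRG were under it and had separate groups, against 62.6% called and 67.6% separate among the genes tested. Since the RNAs were chosen on these values, nothing is read from the counts. Ranked from the most positive of 15614 log2 fold changes in 2102 EP, UCA1 was the 41st, NEAT1 the 72nd and MALAT1 the 626th. In TCam-2 the order was another, with NEAT1 the 83rd, MALAT1 the 296th and UCA1 the 1060th.

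Within groups, libraries high in NEAT1 were also high in MALAT1 and ESRG. In each of the 4 groups the 3 libraries stood in the same order in all 3 of these RNAs. In 2102 EP with I-BRD9, for example, replicate 1 was highest and replicate 3 lowest in each. The deviations of log2 CPM from the group mean correlated at 0.93 between NEAT1 and MALAT1, 0.91 between MALAT1 and ESRG and 0.83 between NEAT1 and ESRG (Pearson r over 12 libraries, which share the library and its scaling). For UCA1 they correlated at 0.13 with NEAT1, 0.07 with MALAT1 and 0.00 with ESRG. The order of NEAT1 in all 4 groups was also that of 19 of the 15613 other genes tested, or 0.122%, a number that includes MALAT1 and ESRG. The RNAs were chosen on values of these same libraries, so this share is a description and no test.

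Among the 1315 GENCODE lncRNA genes tested, MALAT1 had the highest mean in TCam-2 with I-BRD9, in TCam-2 with DMSO and in 2102 EP with I-BRD9, and was the 4th in 2102 EP with DMSO, where ESRG was the highest. NEAT1 was the 7th in TCam-2 with I-BRD9 and the 52nd with DMSO, and the 10th and the 80th in 2102 EP. ESRG was the 90th in TCam-2 with I-BRD9 and the 18th with DMSO, and in 2102 EP the 5th with I-BRD9. UCA1 was the 64th with I-BRD9 and the 134th with DMSO in TCam-2, and the 66th and the 572nd in 2102 EP. Of these lncRNA genes 119 rose and 118 fell in TCam-2 and 153 rose and 170 fell in 2102 EP after I-BRD9 (edgeR, adjusted p under 0.05), so lncRNAs as a class did not move in 1 direction.

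The gene lists from here on were chosen with earlier results of these data known, so their counts and adjusted p values are a description and no independent test. Genes of paraspeckle proteins, the partners of NEAT1, fell more often than they rose. Of 24 tested, 12 fell and 1 rose in TCam-2, with a median log2 fold change of −0.24, and 14 fell and 1 rose in 2102 EP, with a median of −0.34. Among all genes tested 16.5% fell and 15.3% rose in TCam-2 (median 0.01) and 18.6% fell and 18.2% rose in 2102 EP (median 0.00). SFPQ, which with NONO and PSPC1 binds NEAT1 and is needed for paraspeckles, fell by 0.36 ± 0.07 in TCam-2 and by 0.34 ± 0.07 in 2102 EP on the log2 scale (SE; edgeR adjusted p = 0.000486 and 0.000709). PSPC1 fell by 0.67 ± 0.11 in 2102 EP and stood at −0.36 ± 0.10 in TCam-2, where its call ended when I-BRD9 replicate 3 (adjusted p = 0.0764) or DMSO replicate 2 (0.107) was left out. NONO, with shared reads, was at 0.16 ± 0.08 in TCam-2 and −0.11 ± 0.08 in 2102 EP and was not called. SRSF10, a splicing regulator, had 106.3 against 196.9 CPM in TCam-2 and 161.0 against 212.0 CPM in 2102 EP and fell in both (adjusted p = 1.63e-08 and 0.00045). HNRNPH3 fell by 0.35 ± 0.09 in TCam-2 and by 0.67 ± 0.09 in 2102 EP. TARDBP, which encodes the RNA-binding protein TDP-43, fell by 0.24 ± 0.08 in TCam-2 and by 0.66 ± 0.08 in 2102 EP. The TCam-2 call of TARDBP ended when DMSO replicate 3 (adjusted p = 0.0858) or I-BRD9 replicate 2 or 3 (0.111 and 0.0599) was left out, with libraries scaled by totals alone (0.115), and with no filter on low counts (0.0635). FIGN, a microtubule-severing protein gene, was the member called higher, at 0.68 ± 0.14 in TCam-2 and 0.39 ± 0.15 in 2102 EP, where 9 of the alternatives tried ended the call, among them DESeq2 (adjusted p = 0.0702).

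Genes of nuclear speckle proteins and of proteins that bind or process MALAT1 showed a like balance. Of 24 tested, 11 fell and none rose in TCam-2 (median −0.22), and 10 fell and 2 rose in 2102 EP (median −0.20). The splicing factor genes SRSF2 and SRSF3 fell by 0.44 ± 0.10 and 0.34 ± 0.08 in TCam-2 and by 0.65 ± 0.10 and 0.59 ± 0.08 in 2102 EP. METTL16, an RNA methyltransferase that binds the MALAT1 triple helix, fell by 0.55 ± 0.11 in TCam-2 (adjusted p = 0.000377) and by 0.37 ± 0.11 in 2102 EP (0.00762), a call that ended when DMSO replicate 3 was left out (0.0513). RPP30, a subunit of RNase P, which cuts the MALAT1 end, fell by 0.63 ± 0.12 in TCam-2 and stood at −0.14 ± 0.12 in 2102 EP. The members called higher in 2102 EP were SRRM2, a scaffold of speckles (0.30 ± 0.10), and POP1, another RNase P subunit (0.41 ± 0.10). That count was 1 with either I-BRD9 replicate 1 or DMSO replicate 2 left out, and 5 when libraries were scaled by their totals alone.

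**Figure D3:**
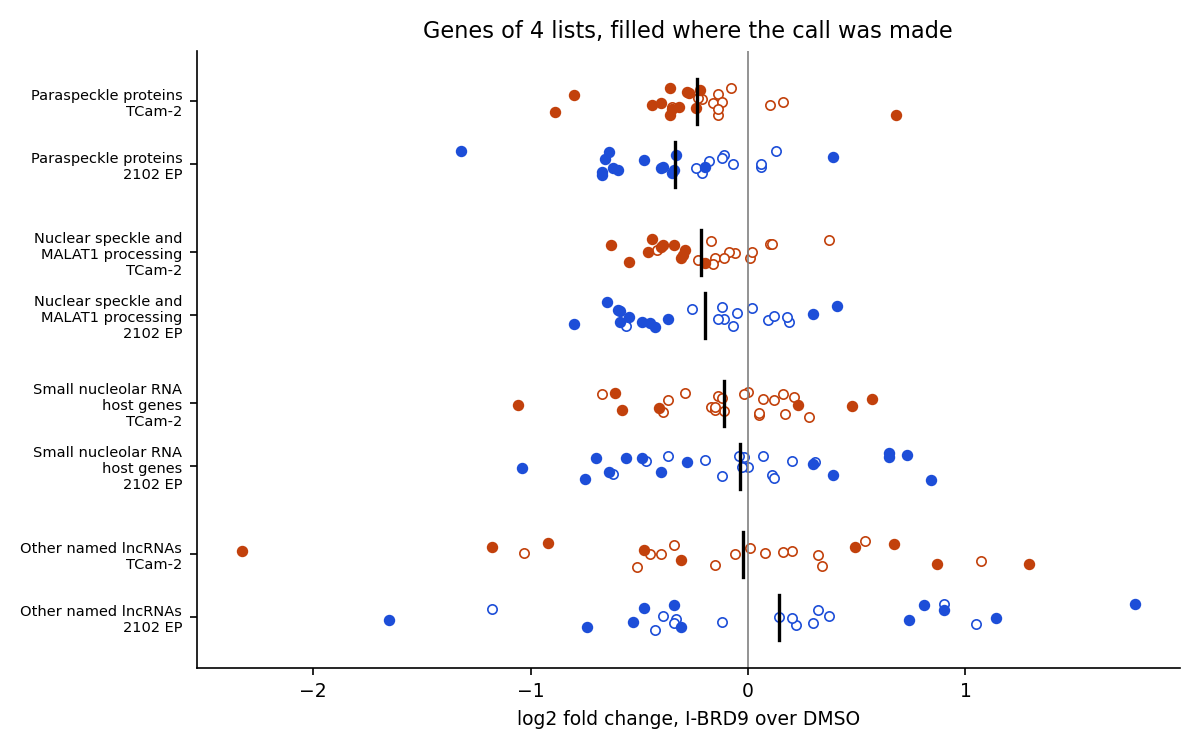
log2 fold change of I-BRD9 over DMSO for the genes of 4 lists, each list shown for TCam-2 above 2102 EP. A point is a gene, filled where edgeR called it at an adjusted p under 0.05, and black bars are medians of the genes drawn. Genes under 0.2 CPM in both groups of a line are not drawn. Paraspeckle proteins lie mostly left of 0 in both lines, with a median of −0.24 in TCam-2 and −0.34 in 2102 EP, and the other lncRNAs spread to both sides.

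Of 8 genes of transcription factors that act on the NEAT1 gene, 1 was called higher and 2 lower in TCam-2, and 1 lower in 2102 EP. Among all genes tested 15.3% were called higher and 16.5% lower in TCam-2, and 18.2% and 18.6% in 2102 EP. Nothing is read from counts this small. E2F1, a cell cycle factor gene, fell by 0.70 ± 0.11 in TCam-2 and stood at −0.26 ± 0.11 in 2102 EP, where it was called once I-BRD9 replicate 1 was left out (adjusted p = 0.0163). STAT3 was at 0.46 ± 0.13 in TCam-2, a call that ended when I-BRD9 replicate 2 (adjusted p = 0.0554) or DMSO replicate 1 (0.0693) was left out, and at −0.13 ± 0.13 in 2102 EP. HSF1, the heat shock factor gene, stood at 0.13 ± 0.08 and 0.18 ± 0.09, and HIF1A, the hypoxia factor gene, at −0.20 ± 0.10 and 0.04 ± 0.11, in TCam-2 and 2102 EP. Neither was called, though HSF1 in 2102 EP was when libraries were scaled by totals alone (adjusted p = 0.0262) or by the upper quartile (0.044). Of 6 genes whose proteins are known to bind UCA1 or ESRG RNA, 2 fell in TCam-2 and 4 in 2102 EP. The shares of all genes that fell were again 16.5% and 18.6%, and nothing is read from these counts either. SMARCA4, the BAF ATPase gene, stood at −0.14 ± 0.09 in TCam-2 and 0.06 ± 0.10 in 2102 EP and was not called. MCM2, a helicase subunit gene of DNA replication, had 51.2 against 94.9 CPM in TCam-2 and 63.5 against 152.2 CPM in 2102 EP. EZH2, the gene of a Polycomb methyltransferase, stood at −0.30 ± 0.10 in TCam-2 and fell by 0.45 ± 0.09 in 2102 EP. With I-BRD9 replicate 1 left out neither MCM2 (adjusted p = 0.0706) nor EZH2 (0.0738) was called in TCam-2, nor with I-BRD9 replicate 2 left out (0.0653 and 0.0745). The MCM2 call also ended with DMSO replicate 3 left out (0.0716) and the EZH2 call with DMSO replicate 1 (0.0801). No filter on low counts ended the MCM2 call too (0.0543), and scaling by totals alone that of EZH2 (0.0833).

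Other transcripts linked to HERV-H fell with I-BRD9, but not each in the same line. Of 6 tested, 4 fell and none rose in TCam-2, where LINC-ROR and LINC01108 had at most 1 count over a group and the other 4 had a median log2 fold change of −3.08. In 2102 EP 5 fell and none rose, with a median of −2.49. Among all genes tested 16.5% fell in TCam-2 and 18.6% in 2102 EP. LINC00458, a lncRNA of pluripotent cells, had 7.22, 6.97 and 8.23 CPM with I-BRD9 and 15.7, 11.3 and 8.45 CPM with DMSO in TCam-2. The 2102 EP libraries had 48.7, 47.0 and 44.3 CPM with I-BRD9 and 536.8, 514.2 and 539.7 CPM with DMSO. Its log2 fold change was −0.66 ± 0.16 in TCam-2 and −3.51 ± 0.12 in 2102 EP, and that difference was past the threshold (adjusted p = 2.87e-09). ABHD12B, a hydrolase gene with a HERV-H promoter, was the reverse, with 2.37, 0.961 and 2.09 CPM with I-BRD9 and 18.9, 17.4 and 22.7 CPM with DMSO in TCam-2. The 2102 EP libraries had 94.8, 84.2 and 80.7 CPM with I-BRD9 and 80.4, 75.3 and 72.1 CPM with DMSO. Its log2 fold change of −3.40 ± 0.20 in TCam-2 and 0.19 ± 0.12 in 2102 EP also differed between the lines (adjusted p = 2.07e-10). ABHD12B thus shared with ESRG the larger fall in TCam-2, and LINC00458 did not. In 2102 EP the direction was not shared, since ESRG was lower with I-BRD9 and the ABHD12B libraries with I-BRD9 were all above those with DMSO.

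SCGB3A2, a secretoglobin gene, fell in both lines alike, to 10.7 CPM against 72.0 CPM in TCam-2 and to 21.6 CPM against 121.1 CPM in 2102 EP. LINC-ROR, a lncRNA tied to reprogramming, had 1.64, 2.00 and 2.34 CPM with I-BRD9 and 41.4, 49.6 and 40.5 CPM with DMSO in 2102 EP. HHLA1 fell by 3.53 ± 0.71 in TCam-2, with 4 counts over the I-BRD9 group against 48 with DMSO, and by 1.91 ± 0.46 in 2102 EP. Of the 8 HERV-H linked transcripts described here, UCA1 was the 1 whose libraries with I-BRD9 were all above those with DMSO in both lines.

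**Figure D4:**
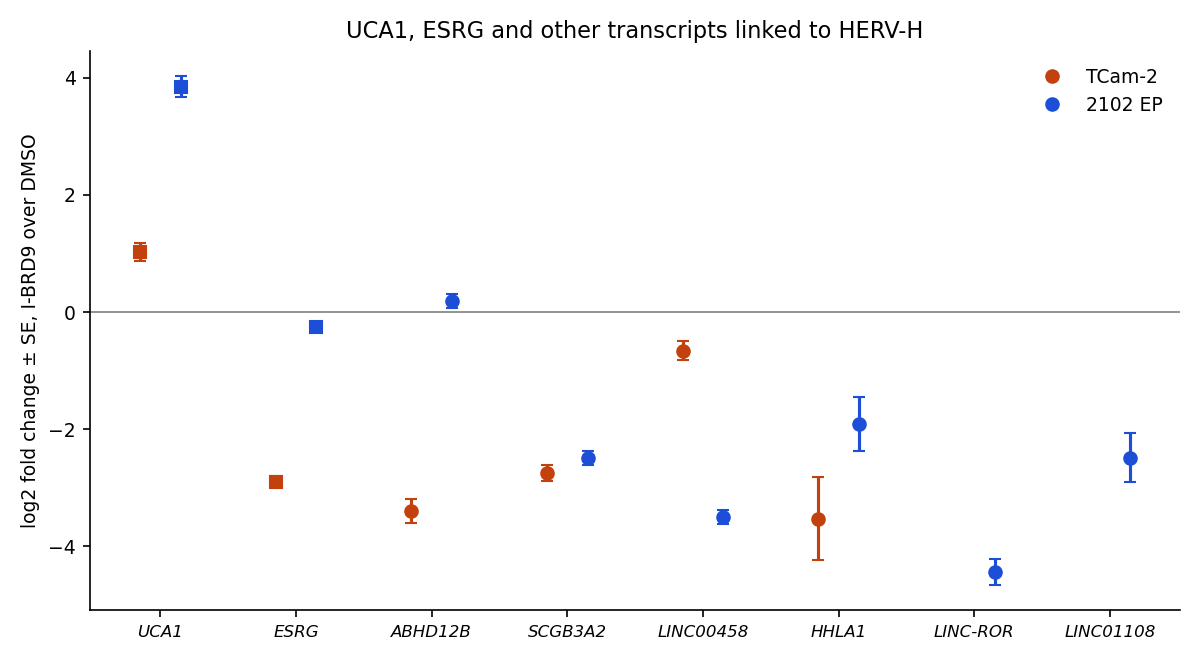
log2 fold change of I-BRD9 over DMSO (± SE) in TCam-2 and 2102 EP for UCA1 and ESRG (squares) and for 6 other transcripts linked to HERV-H (circles). LINC-ROR and LINC01108 are not drawn for TCam-2, where they had at most 1 count over a group. ABHD12B lies at −3.40 in TCam-2 and 0.19 in 2102 EP, and LINC00458 at −0.66 and −3.51.

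Factors known to act on LTR7 mostly fell as well. Of 9 such genes and coactivators, 6 fell and MED12 rose in TCam-2 (median −1.11), and 5 fell and 2 rose in 2102 EP (median −0.87). Over all genes tested 16.5% fell and 15.3% rose in TCam-2, and 18.6% fell and 18.2% rose in 2102 EP. NANOG, a core pluripotency factor gene with reads shared in 8 libraries, had 12.8 against 524.5 CPM in TCam-2 and 19.3 against 175.3 CPM in 2102 EP. POU5F1, whose reads are shared in all libraries, had 323.0 against 694.9 CPM in TCam-2 and 186.3 against 386.1 CPM in 2102 EP. PRDM14 fell by 2.99 ± 0.23 in TCam-2 and by 2.30 ± 0.15 in 2102 EP, and KLF4 by 2.38 ± 0.33 and 2.10 ± 0.36. TFCP2L1 fell by 0.62 ± 0.10 in TCam-2 and was called higher in 2102 EP (0.35 ± 0.10), a call that ended when DMSO replicate 1 was left out (adjusted p = 0.0709). MED12, a Mediator kinase module gene, rose by 1.11 ± 0.20 in TCam-2 and by 1.29 ± 0.24 in 2102 EP.

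Of 7 other lncRNAs of pluripotent cells 5 were tested, and 3 fell and none rose in each line. The shares of all genes tested that fell were 16.5% in TCam-2 and 18.6% in 2102 EP. LINC00678 fell in both, with 8 counts over the I-BRD9 group against 120 with DMSO in TCam-2 and 9 against 98 in 2102 EP. MIR302CHG, the host of the miR-302 cluster, had 18.4, 15.3 and 31.9 CPM with I-BRD9 and 120.8, 89.0 and 119.5 CPM with DMSO in TCam-2, where it fell. The 2102 EP libraries had 63.8, 209.3 and 194.9 CPM with I-BRD9 and 376.6, 383.9 and 257.5 CPM with DMSO, and was not called by edgeR (adjusted p = 0.0759) but was by DESeq2 (0.0363) and limma voom (0.00471). TUNAR, a neural and pluripotency lncRNA, fell by 1.71 ± 0.31 in TCam-2 and stood at 0.60 ± 0.27 in 2102 EP. LNCPRESS1 fell by 2.38 ± 0.13 in 2102 EP and had at most 3 counts over a TCam-2 group.

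Small nucleolar RNA host genes moved to both sides. Of 28 tested, 3 rose and 4 fell in TCam-2 (median −0.11), and 6 rose and 8 fell in 2102 EP (median −0.03). Over all genes tested 15.3% rose and 16.5% fell in TCam-2, and 18.2% rose and 18.6% fell in 2102 EP. Nothing is read from the counts of this list or the next. SNHG9 had 47.4 against 62.8 CPM in TCam-2, where it fell, and 166.7 against 93.4 CPM in 2102 EP, where it rose (adjusted p = 7.49e-07 for the difference). SNHG25 rose by 0.73 ± 0.10 in 2102 EP, to 1141.4 CPM against 689.6 CPM, and SNHG17 fell by 1.06 ± 0.10 in TCam-2 and by 0.70 ± 0.10 in 2102 EP. When TCam-2 libraries were scaled by totals alone 6 of these genes were called higher. Of 25 other named lncRNAs tested, 4 rose and 5 fell in TCam-2 (median 0.01) and 5 rose and 6 fell in 2102 EP (median 0.14). With I-BRD9 replicate 2 left out the TCam-2 count of rises was 2, and with DMSO replicate 1 or 3 left out the 2102 EP count of falls was 3. H19, an imprinted lncRNA, fell to 159.3 CPM against 800.7 CPM in TCam-2 and to 11 CPM against 34.3 CPM in 2102 EP. TINCR, a lncRNA of epidermal differentiation, had 38.0 against 26.9 CPM in TCam-2, where the call ended when I-BRD9 replicate 2 was left out (adjusted p = 0.0579), and rose to 12.4 CPM against 3.58 CPM in 2102 EP.

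Among tested genes near NEAT1 and MALAT1 more were called higher than lower in both lines, and the nearest upstream of NEAT1 was not called. Within 250 kb of the 4 RNAs lie 82 other annotated genes, of which 23 were tested. Of these, which include the nested RF01871, 8 rose and 2 fell in TCam-2 (median 0.08), and 8 rose and 4 fell in 2102 EP (median 0.12). UCA1 and ESRG had 1 tested gene each beside them, TPM4 and CACNA2D3, and neither was called higher. Of all genes tested 15.3% rose and 16.5% fell in TCam-2, and 18.2% rose and 18.6% fell in 2102 EP. The TCam-2 count of falls was 1 with I-BRD9 replicate 1 or DMSO replicate 1 left out. FRMD8, 9249 bases from NEAT1, had 46.3 against 43.9 CPM in TCam-2 and 25.6 against 22.5 CPM in 2102 EP and was not called. DPF2, a BAF subunit gene 69525 bases from NEAT1 with reads shared in every library, stood at −0.29 ± 0.16 and −0.20 ± 0.18 and was not called. Farther out, CDC42EP2, with shared reads, had 7.21 against 3.7 CPM in TCam-2 and 10.5 against 2.07 CPM in 2102 EP and rose in both. AP000944.2, which spans CDC42EP2 on the same strand, was also called higher in both. The counts of both genes were not whole in 12 libraries, so their rises cannot be taken as independent. TIGD3 had 4 CPM against 1.28 CPM in TCam-2 and rose to 1.74 CPM against 0.17 CPM in 2102 EP. Its TCam-2 call ended when I-BRD9 replicate 2 (adjusted p = 0.0713), DMSO replicate 1 (0.0632) or DMSO replicate 3 (0.0541) was left out. RNASEH2C, a subunit gene of RNase H2, rose by 0.31 ± 0.08 in TCam-2 and by 1.15 ± 0.09 in 2102 EP. SSSCA1 stood at −0.46 ± 0.14 in TCam-2, a call that ended when I-BRD9 replicate 1 (adjusted p = 0.0747) or DMSO replicate 1 (0.122) was left out or libraries were scaled by totals alone, and fell by 0.72 ± 0.15 in 2102 EP. Beside UCA1 the tested gene was TPM4, a tropomyosin gene 230695 bases away with shared reads, which stood at −0.03 ± 0.09 in TCam-2 and fell by 0.70 ± 0.09 in 2102 EP.

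**Figure D5:**
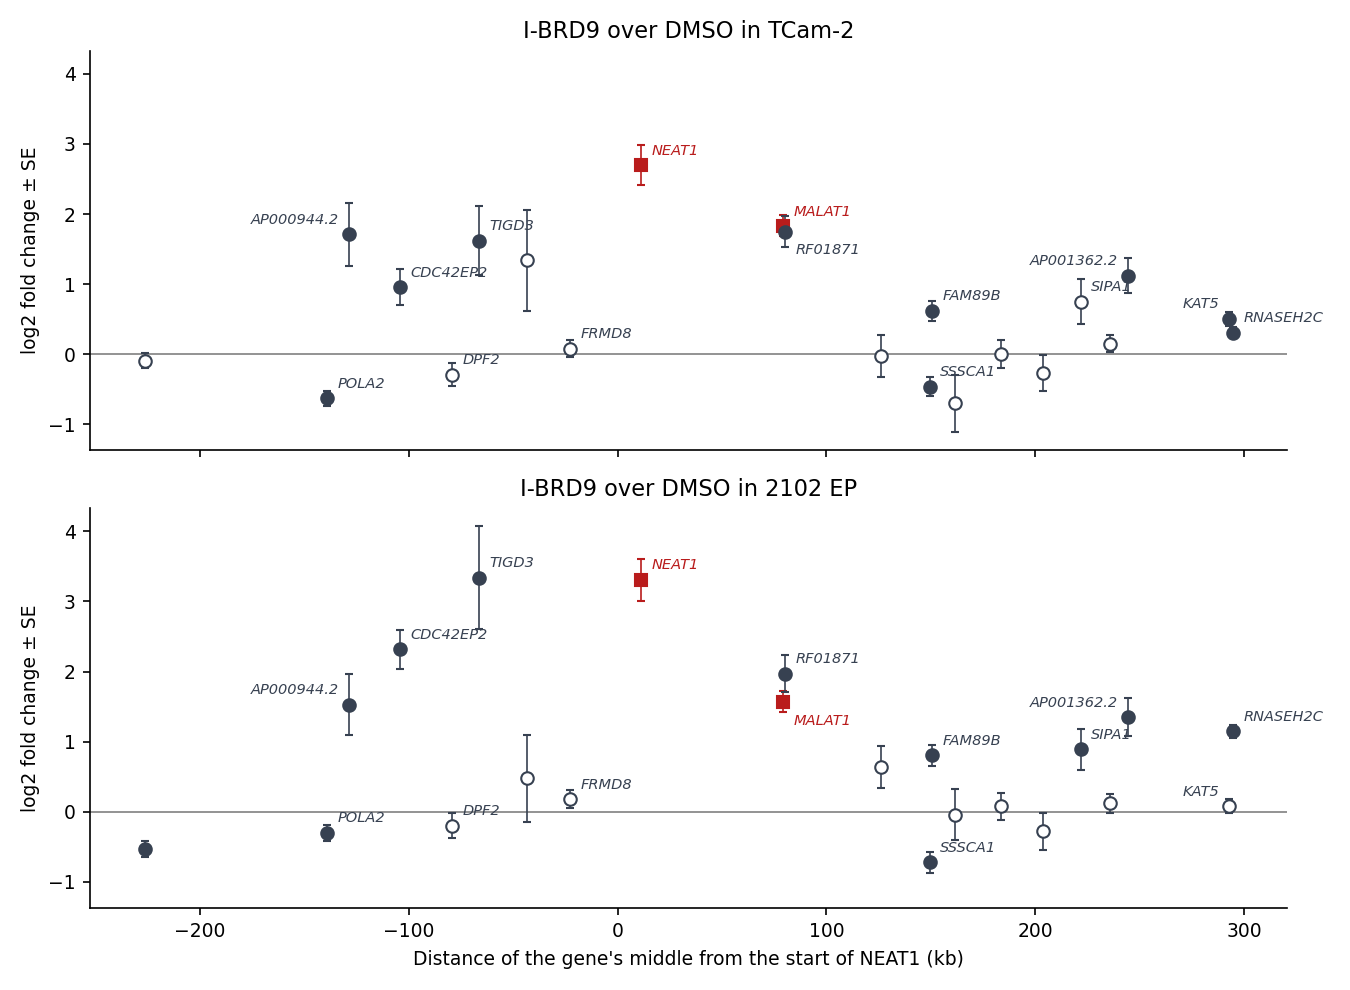
log2 fold change of I-BRD9 over DMSO (± SE) for tested genes around NEAT1 and MALAT1 (red squares), against the distance of each gene's middle from the start of NEAT1 in kb. The upper panel is TCam-2 and the lower 2102 EP, and circles are filled where edgeR called the gene. FRMD8, the nearest tested gene upstream of NEAT1, lies at 0.08 in TCam-2 and 0.18 in 2102 EP.

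The RefSeq promoter table (GRCh38.p14, 250 bases before to 50 after a start) held MALAT1 alone of the 4, with a pair of starts. They are shown because MALAT1 was higher with I-BRD9 in both lines, with matches to any of 7 short motifs on either strand in capitals. The upstream promoter (chr11:65497488-65497787, plus strand) is 73.7% G or C, against a median of 58.7% over all 35116 promoters, and holds 5 matches to GGGCGG, found in 45.0% of them:
MALAT1 upstream promoter: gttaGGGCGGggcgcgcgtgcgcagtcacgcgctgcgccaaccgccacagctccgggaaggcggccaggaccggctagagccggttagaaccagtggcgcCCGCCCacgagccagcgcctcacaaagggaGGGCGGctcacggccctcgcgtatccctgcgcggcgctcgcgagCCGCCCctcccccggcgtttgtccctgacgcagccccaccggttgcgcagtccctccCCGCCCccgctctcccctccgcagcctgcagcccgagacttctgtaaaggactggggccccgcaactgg
The downstream promoter (chr11:65498795-65499094, plus strand) is 46.0% G or C and holds 1 match to TATAAA, found in 11.5% of promoters, and 1 to ATGCAAA, found in 4.46%:
MALAT1 downstream promoter: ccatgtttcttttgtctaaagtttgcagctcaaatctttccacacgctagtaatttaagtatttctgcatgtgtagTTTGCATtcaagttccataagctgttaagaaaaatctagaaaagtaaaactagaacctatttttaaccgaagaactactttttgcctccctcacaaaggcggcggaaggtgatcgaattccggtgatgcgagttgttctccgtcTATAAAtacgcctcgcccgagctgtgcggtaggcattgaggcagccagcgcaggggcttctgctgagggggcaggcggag
Neither holds CCAAT (34.6% of promoters), ACGTG (21.4%), TGANTCA (7.71%) or CACGTG (7.26%), the last of which contains ACGTG. A match is a match of letters only.

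The genes most like each RNA were taken by Pearson r of log2 CPM over the 12 libraries among 9657 genes with at least 10 CPM in their highest group, leaving out identifiers, clone names and numbered LINC genes, which describes a pattern shared across 4 groups. Those most like NEAT1 were MAPK8IP2 (r = 0.991), DCBLD1, AKAP13, DUSP18 and ZCRB1 (0.976). MAPK8IP2, a kinase scaffold gene, had 16.8 against 6.14 CPM in TCam-2 and 17.0 against 5.32 CPM in 2102 EP. Those most like MALAT1 were BRD2 (0.989), VPS16, PRXL2A, ACER3 and GPC1 (0.981), and BRD2, a BET bromodomain gene, had 314.4 against 194.1 CPM in TCam-2 and 181.8 against 116.8 CPM in 2102 EP. Those most like UCA1 were MXD4 (0.982), B4GALT3, SLC2A3, ANKRD1 and PEG10 (0.967), and ANKRD1, a target gene of YAP, had 58.2 against 38.5 CPM in TCam-2 and 144.8 against 10.1 CPM in 2102 EP. Those most like ESRG were THY1 (0.993), SART3, LSM2, LIN28A and ZBTB44 (0.989). LIN28A, an inhibitor of let-7 maturation in stem cells, had 93 against 217.9 CPM in TCam-2 and 739.5 against 932.3 CPM in 2102 EP. Between the RNAs themselves r was 0.724 for NEAT1 and MALAT1, 0.861 for NEAT1 and UCA1, and 0.754 for MALAT1 and UCA1. For ESRG it was −0.878 with MALAT1, −0.41 with UCA1 and −0.333 with NEAT1.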

How the data were processed

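The authors deposited 1 table of estimated counts, a row per gene and a column per library. GRCh38, Salmon 1.9.0, STAR 2.7.11b, Trim Galore, DESeq2 and R 4.2.0 are named in the submitters' processing notes. Neither annotation nor strand setting was found (not given in the sources used here), which leaves overlapping and antisense genes uncertain. Estimated counts were rounded and fitted with edgeR 4.0.16 (R 4.3.3): TMM scaling, filterByExpr by group, and 1 robust quasi-likelihood model with 4 group means (8 residual degrees of freedom, common biological coefficient of variation 0.127). Benjamini-Hochberg adjustment ran over all 15614 genes, with calls under 0.05. The fit was tested on simulated counts. Alternatives used DESeq2 1.42.0, limma 3.58.1 (voom), other scalings, no filter, blocks, the compared groups alone and each library left out. GENCODE release 29 held 58228 of the 63241 gene identifiers (92.1%). Members and lists were chosen with earlier results of these data known. Named genes are the 4 RNAs, up to 4 called genes per list and I-BRD9 comparison with the largest change, all genes of lists with at most 9 tested, tested neighbours, and the 5 genes with the highest r per RNA. Some of these are not reported here. SFPQ, NONO, SRRM2 and POP1 were named outside this rule, after their values were seen.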

Additional observations from a re-analysis of the deposited data

Results flagged for a closer look

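Among 87 genes of the lists and neighbourhoods that were followed by name, 18 had an I-BRD9 effect that differed between the lines at an adjusted p under 0.05 by edgeR, and that is what put them here. Among all genes tested the share was 13.1%. Values are TCam-2 minus 2102 EP differences of log2 fold changes. NEAT1, MALAT1, UCA1 and ESRG are left out, since they were chosen on these values. The lists were also chosen with earlier results of these data known, and many of the genes followed were picked by their I-BRD9 changes. Their adjusted p values and their number are thus a description and no independent test. Of the transcripts linked to HERV-H or to pluripotent cells, ABHD12B differed by −3.59, TUNAR by −2.31 and LINC00458 by 2.85. Of the LTR7 factors, NANOG differed by −2.17, TFCP2L1 by −0.96 and SOX2 by −0.64, the last lost without 2102 EP DMSO replicate 1 or 2, TCam-2 I-BRD9 replicate 1 or TCam-2 DMSO replicate 3, and with limma voom.

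Of the other lncRNAs, TINCR differed by −1.29, SNHG9 by −1.24, H19 by −0.68, SNHG25 by −0.51 and SNHG26 by 1.11. SNHG9 and TFCP2L1 were called lower in TCam-2 and higher in 2102 EP. The SNHG26 difference was lost without TCam-2 I-BRD9 replicate 1 (adjusted p = 0.0554) or 3 (0.0513). Of the paraspeckle and RNA-binding proteins, SRSF10 differed by −0.49, TARDBP by 0.42 and HNRNPA1, with shared reads, by 0.38. That of TARDBP was not past the threshold with TCam-2 I-BRD9 replicate 1 left out (0.0504), and that of HNRNPA1 in 10 of the alternatives. STAT3 differed by 0.58, which was lost in 12. Of the neighbours, CDC42EP2 differed by −1.37, RNASEH2C by −0.85 and TPM4 by 0.67, and that of CDC42EP2 was lost with limma voom (0.057) and without TCam-2 DMSO replicate 1 (0.0638).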

How the results depend on the processing

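No alternative reversed a log2 fold change of the 4 RNAs, and the number of genes called stayed within 1.5 times in all 4 comparisons. The values of UCA1 moved by more than their spread when 2102 EP DMSO replicate 2 was left out. Over all libraries left out in turn, UCA1 lay between 3.69 and 4.06 for I-BRD9 in 2102 EP, between −3.04 and −2.65 for the difference of effects (TCam-2 minus 2102 EP) and between 2.13 and 2.52 for TCam-2 over 2102 EP with DMSO. In the same way NEAT1 lay between 2.51 and 2.84 in TCam-2 and between 3.09 and 3.53 in 2102 EP, and ESRG in 2102 EP between −0.28 and −0.21. Whether replicate numbers pair the samples could not be decided from 3 libraries a group. As deviations from group means, same-numbered libraries correlated at 0.16, 0.034 and 0.127 in TCam-2 and at −0.119, 0.096 and −0.079 in 2102 EP. The number codes of the libraries fall into runs, which give the same pairs in 2102 EP. In TCam-2 they put I-BRD9 replicate 1 with DMSO replicate 2 (0.018) and I-BRD9 replicate 2 with DMSO replicate 1 (−0.078). With a replicate block, 5512 genes were called in 2102 EP against 5739 without, and UCA1 was at 3.85. Of the list counts and named genes recomputed, 6610 values kept their call or stayed within 1.5 times, 235 lost a call or became a smaller count, 102 gained a call or became a larger count, and 0 reversed. Another scaling moved the median of all genes by at most 0.0755 (log2). Counts of 1.83 to 3.07 CPM limit the UCA1 level in 2102 EP with DMSO, and gene-level counts limit what can be said of NEAT1 transcripts.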
